A study of Mus musculus with 24 samples.

Results

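WT cells were compared with themselves at opposite sides of the daily cycle. The hour of the cycle is the time after dexamethasone, counted modulo 24 h, so that it marks elapsed time and not a circadian time measured in these cells. WT libraries at hours 0 and 4 (24, 28, 48 and 52 h after dexamethasone) were set against WT libraries at hours 12 and 16 (12, 16, 36 and 40 h), 4 libraries a side and 8 of the 24 libraries in the series. WT cells are control Per2::Luciferase knock-in mouse ES cells, differentiated through embryoid bodies to day 28 and given 100 nM dexamethasone, a glucocorticoid used to set cells in culture to a common phase. KO cells carry the same knock-in, differentiation and treatment and lack Rev-erbα and Rev-erbβ. They are a single line, and the 8 KO libraries at the same hours serve here for the comparison of the sides between genotypes. RNA of 3 embryoid bodies was pooled for each library and each time point has 1 library per genotype. The spread within a side therefore mixes 2 hours of 2 successive days, and p-values measure that spread. Libraries of hours 0-4 were also later on average, at a mean of 38 h after dexamethasone against 26 h for hours 12-16. A difference between the sides thus mixes the hour of the cycle with elapsed time.

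In the mammalian clock BMAL1 (Arntl) pairs with CLOCK or NPAS2 and binds E-boxes, and the pair activates Per and Cry genes, whose proteins then repress it. The same activators drive Rev-erbα (Nr1d1) and Rev-erbβ (Nr1d2), nuclear receptors that repress Bmal1 and Npas2 through the ROR and REV-ERB response element (RRE). DBP, TEF and HLF activate, and E4BP4 (Nfil3) represses, genes with a D-box. Rev-erb transcripts are thus usually low when Bmal1 transcript is high.

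The 8 WT libraries held 6426254 to 9182861.5 fragments on exons. Mean library totals, in read pairs, were 16068230.6 at hours 0-4 and 17828951.2 at hours 12-16, which an exact two-sided permutation test did not separate (p = 0.371, the smallest possible being 0.0286). Across genes the log2 levels of any 2 of the 8 libraries had a Pearson r between 0.973 and 0.990, and the library at 36 h had the lowest mean r with the others (0.978). Libraries also differed in the summed levels of marker genes of other cell types. The summed level of 27 liver, yolk sac and endoderm genes was 1570 RPKM at 16 h and 1210 RPKM at 36 h, against 194 to 522 RPKM in the other 6 libraries. Summed neuronal and glial genes were highest at 36 h (87.6 RPKM, against 12.9 to 37.4). Summed trophoblast genes were highest at 16 h (289 RPKM) and 40 h (242 RPKM). RPKM is the number of fragments on a gene divided by exonic length and by the library total. In these bulk samples fewer cells of a type and less RNA per cell cannot be told apart.

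Promoter sequence was taken from RefSeq on GRCm38.p6, from 250 bases before to 50 after the gene start, for 47 of the 58 clock genes and genes of smallest p looked up. Both strands were searched for the E-box CACGTG, the E′-box CACGTT, the D-box (TTATGTAA or TTACGTAA), the RRE (A or T, any base, then TAGGTCA or TGGGTCA) and the CCAAT box. The windows below surround motifs in 4 clock genes that stand at different places in the comparison, with the motif in capitals on the strand of the gene.
Nr1d1, chr11:98775385-98775420, minus strand, E′-box: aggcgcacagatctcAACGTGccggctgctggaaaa
Cry1, chr10:85185094-85185148, minus strand, E′-box and E-box: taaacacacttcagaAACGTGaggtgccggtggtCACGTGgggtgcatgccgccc
Per3, chr4:151044801-151044885, minus strand, 2 D-boxes: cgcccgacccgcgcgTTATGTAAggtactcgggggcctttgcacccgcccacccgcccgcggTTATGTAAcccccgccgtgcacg
Nfil3, chr13:52981028-52981066, minus strand, RRE: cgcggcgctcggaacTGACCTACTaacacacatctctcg
An E-box was found in 6 of the 47 windows (7.15% of 32851 promoters), an E′-box in 4 (4.68%), a D-box in 1 (1.06%), an RRE in 1 (3.2%) and a CCAAT box in 17 (37.4%). None of the clock motifs, in the exact spellings above, was found in these windows of Nr1d2, Dbp, Arntl, Npas2 or Hlf. The window of Arntl held 8 CCAAT boxes. It also held agtaggtta, which has T where the RRE spelling searched has C and so was not counted. Sites spelled otherwise or outside the windows were not searched, so an absence here does not mean that a gene lacks the motif. Nr1d1, with its E′-box, was higher at hours 0-4 and Cry1, with an E-box and an E′-box, was lower there, as the values below show.

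Rev-erbβ (Nr1d2) rose at hours 0-4 and was the only gene of 14944 to pass the test. It was called from limma on log2(RPKM + 0.1), at a p under 0.05 after Benjamini-Hochberg adjustment. One gene in that direction is 0.00669% of the genes tested, and 0 genes, 0%, passed in the other. Without adjustment 367 genes (2.46%) had a p under 0.05 with a higher level at hours 0-4, and 1117 genes (7.47%) with a lower level. The 4 libraries of each side did not overlap for 231 genes (1.55%) that were higher and 542 genes (3.63%) that were lower. The median log2 difference of all genes was -0.03. The split between higher and lower rests on the scaling, since 24.7% of the genes with an unadjusted p under 0.05 were higher in the deposited scaling, 57.7% after quantile normalization and 45.7% after median centring. Differences near the median of all genes therefore have no firm direction.

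Nr1d2 (chr14:18204056-18239106, minus strand) encodes a heme-binding repressor of the clock. Its level was 2.66, 2.65, 2.38 and 3.02 RPKM at 24, 28, 48 and 52 h, and 0.923, 0.895, 1.08 and 1.26 RPKM at 12, 16, 36 and 40 h. The sides did not overlap on either day, and the lowest library of hours 0-4 lay above the highest of hours 12-16. The means were 2.68 ± 0.260 and 1.04 ± 0.166 RPKM (SD, n = 4), a ratio of 2.58. The log2 difference was 1.29 (95% interval 1.02 to 1.56) with an adjusted p of 0.0235 by limma. The call was lost with linear elapsed time as a covariate (log2 1.20, adjusted p = 0.105), with libraries 12 h apart as a replicate block (adjusted p = 0.186), and without any one of the 7 libraries other than that at 40 h (adjusted p from 0.0775 to 0.151). The direction held in each of these fits.

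Rev-erbα (Nr1d1, chr11:98767932-98775377, minus strand), its paralog, stood next in the order of p. It was measured at 7.48, 5.78, 6.62 and 6.04 RPKM at 24, 28, 48 and 52 h, and at 3.86, 3.58, 4.06 and 4.08 RPKM at 12, 16, 36 and 40 h. The sides again did not overlap, with the first library of hours 0-4 the highest. The ratio of the means was 1.66 and the log2 difference 0.71 (95% interval 0.52 to 0.91), which missed the threshold (adjusted p = 0.096 by limma).

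AK053029 (chr11:98768996-98773402) is a transcript on the plus strand that lies within the span of Nr1d1 and overlaps Thra, the thyroid hormone receptor gene, on its own strand. It was measured at 2.14, 1.55, 1.60 and 1.59 RPKM at 24, 28, 48 and 52 h, and at 0.407, 0.507, 0.518 and 0.859 RPKM at 12, 16, 36 and 40 h. The sides did not overlap and the ratio was 3.0, with a log2 difference of 1.46 (adjusted p = 0.172 by limma). Without the library at 40 h, the highest of its side, it passed the threshold (log2 1.65, adjusted p = 0.0219). The use of strand in the counting is not given in the sources used here, so reads of AK053029 and of the facing Nr1d1 cannot be told apart.

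**Figure D1:**
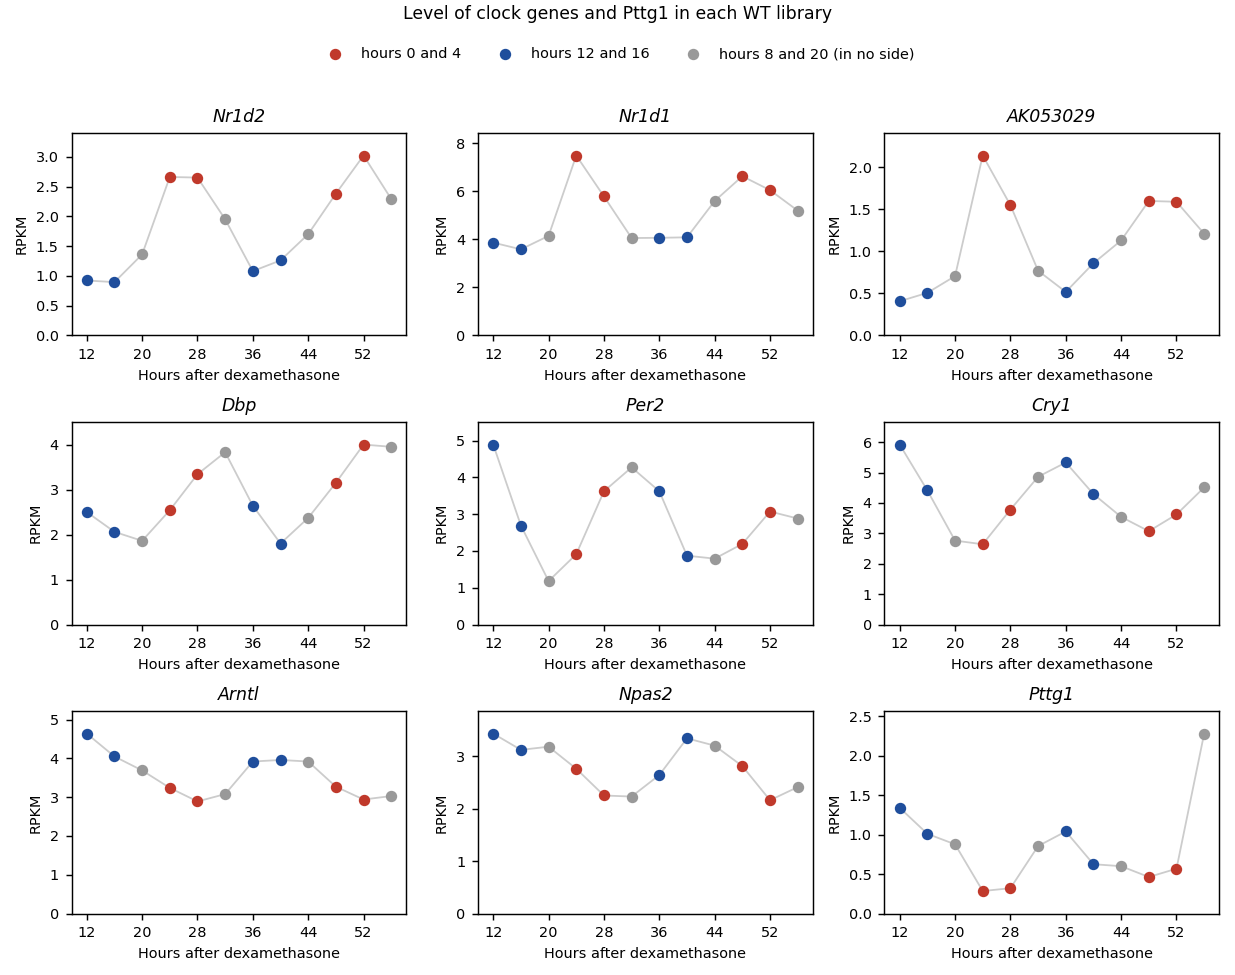
RPKM (y axis, from 0) of 8 clock genes or transcripts and of Pttg1 in each of the 12 WT libraries, against hours after dexamethasone (x axis), with hours 0 and 4 in red, hours 12 and 16 in blue and the remaining hours in grey. The red points of Nr1d2 lie at 2.38 to 3.02 RPKM and the blue at 0.895 to 1.26 RPKM, whereas for Per2 the colours overlap.

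The other E-box and D-box genes fell into no single direction. Of the 17 genes in this list 8 had a positive and 9 a negative difference, with a median of -0.01. An unadjusted p under 0.05 was reached by 3 that were higher (Nr1d2, Nr1d1, Dbp) and 2 that were lower (Cry1, Tspan4), against the 2.46% and 7.47% over all genes. The sides did not overlap for 2 higher and 1 lower.

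Dbp, a D-box activator, was at 2.54, 3.34, 3.15 and 4.00 RPKM at 24, 28, 48 and 52 h and at 2.5, 2.06, 2.64 and 1.80 RPKM at 12, 16, 36 and 40 h. The sides overlapped by 1 library each, and hour 4 was the higher on both days. Its log2 difference was 0.51 (unadjusted p = 0.00861, adjusted p = 0.451 by limma). Cry1, which encodes a repressor of CLOCK and BMAL1, ran the other way. It was at 2.64, 3.78, 3.07 and 3.62 RPKM at 24, 28, 48 and 52 h and at 5.92, 4.41, 5.33 and 4.29 RPKM at 12, 16, 36 and 40 h. The sides did not overlap, with a log2 difference of -0.59 (unadjusted p = 0.00174, adjusted p = 0.451 by limma).

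Per2, whose protein joins CRY in the repressor complex, was at 1.91, 3.62, 2.19 and 3.07 RPKM at 24, 28, 48 and 52 h and at 4.89, 2.69, 3.62 and 1.87 RPKM at 12, 16, 36 and 40 h. Each side held high and low libraries, since hour 4 exceeded hour 0 and hour 12 exceeded hour 16 on both days. Its mean by hour 0, 4, 8, 12, 16 and 20 (2 libraries each) was 2.05, 3.35, 3.58, 4.26, 2.28 and 1.49 RPKM. The highest and the lowest hour were thus 12 and 20, a ratio of 2.86, while the log2 difference between the sides was -0.23 (95% interval -0.88 to 0.42). Each side joined a higher and a lower hour of this profile, and the small difference between the sides does not show that Per2 was flat.

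The same held for Tef, Hlf and Cry2. Tef, the D-box activator related to Dbp, had means of 5.48, 7.31, 7.27, 7.51, 5.43 and 4.18 RPKM at hours 0, 4, 8, 12, 16 and 20 and a log2 difference of -0.01. Hlf, the third of that family, ranged from 0.934 RPKM at hour 20 to 1.51 RPKM at hour 12 with a difference of 0.02. Cry2 ranged from 3.92 RPKM at hour 20 to 5.89 RPKM at hour 12 with a difference of -0.07. Per3 had another shape, highest at hour 8 (1.19 RPKM) and lowest at hour 20 (0.510 RPKM), hours that are in neither side. Its log2 difference was 0.36 (unadjusted p = 0.0628 by limma). Per1, by contrast, stayed within 16.0 to 19.0 RPKM over the 6 hours, and its log2 difference of -0.02 turned positive under 7 of the alternatives.

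The remaining members of the list were Ciart, Bhlhe40 (Dec1), Bhlhe41, Usp2, Wee1 and Nampt. Ciart, which encodes an inhibitor of CLOCK and BMAL1, differed by 0.13, and Bhlhe40, an E-box repressor, by 0.11 on the log2 scale. Its paralog Bhlhe41 differed by -0.14, the deubiquitinase gene Usp2 by 0.03, the cell cycle kinase gene Wee1 by -0.26 and Nampt, the enzyme of NAD synthesis, by -0.14. Unadjusted p-values of these 6 lay between 0.0908 and 0.744. Tspan4, a tetraspanin gene placed on this list, had a difference of -0.23 (unadjusted p = 0.0258).

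Activators of the clock and RRE-driven genes differed in both directions, and none passed the adjusted test. Bmal1 (Arntl, chr7:113207465-113314126, plus strand) was at 3.24, 2.89, 3.27 and 2.94 RPKM at 24, 28, 48 and 52 h and at 4.64, 4.05, 3.92 and 3.96 RPKM at 12, 16, 36 and 40 h. No library of hours 0-4 reached the lowest of hours 12-16. The means were 3.09 ± 0.197 and 4.14 ± 0.337 RPKM (SD, n = 4), and the log2 difference was -0.41 (95% interval -0.58 to -0.24). The unadjusted p was 3.78e-04 and the adjusted p 0.451 by limma, so that Bmal1 was not called.

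Npas2, which can stand in for CLOCK, was at 2.76, 2.25, 2.81 and 2.16 RPKM at 24, 28, 48 and 52 h and at 3.43, 3.12, 2.64 and 3.34 RPKM at 12, 16, 36 and 40 h. Only the library at 36 h put the sides into overlap. The log2 difference was -0.32 (unadjusted p = 0.0207, adjusted p = 0.467 by limma). Clock itself differed by 0.12 and E4bp4 (Nfil3), with the RRE shown above, by -0.03. Rora, the receptor that activates through the RRE, differed by 0.12, and E2f8, a repressor of E2F targets, by -0.44 (unadjusted p = 0.0849). Rorb had at most 0.0348 RPKM in the 8 libraries and was not tested. Of the 6 genes tested in this list 2 were positive and 4 negative, with a median of -0.17, and 2 (Arntl and Npas2) had an unadjusted p under 0.05, lower, against 7.47% of all genes.

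Enzymes that modify clock proteins differed little. Of 13 kinase and ubiquitin ligase genes 5 were positive and 8 negative, with a median of -0.03 that equals that of all genes. The casein kinase genes Csnk1e and Csnk1d, whose products phosphorylate PER, were the 2 with an unadjusted p under 0.05, both lower and without overlap of the sides (7.47% and 3.63% over all genes). When 1 library was left out, 1 or 2 of the 13 were lower at that p. Csnk1e was at 11.2, 11.1, 12.3 and 10.7 RPKM at 24, 28, 48 and 52 h and at 13.4, 13.0, 13.1 and 12.5 RPKM at 12, 16, 36 and 40 h, a log2 difference of -0.19 (unadjusted p = 0.00380). That of Csnk1d was -0.09.

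Outside the clock lists, the genes of smallest p at a mean of at least 1 RPKM are given by name as not past the threshold. Those higher at hours 0-4, after Nr1d2, Nr1d1 and AK053029, were Cxcl12, BC069931, Tns1, Lnpep, AK020087, Raph1, Pkd2, Hipk3 and Gsto1. Their log2 differences lay between 0.17 and 0.33 and each had an adjusted p of 0.451 by limma. Cxcl12, the chemokine that binds CXCR4, was at 19.3, 19.6, 19.1 and 20.9 RPKM at 24, 28, 48 and 52 h and at 15.1, 14.3, 16.9 and 16.6 RPKM at 12, 16, 36 and 40 h. The sides were clear of each other by more than 2 RPKM, with a log2 difference of 0.33. Tns1 encodes a focal adhesion protein, Lnpep an aminopeptidase, Pkd2 a cation channel of primary cilia and Gsto1 a glutathione transferase. AK020087 faces Kif5b on the opposite strand, and its reads cannot be told apart from those of that gene.

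Those lower at hours 0-4 were Bend5, Ntmt1, Kctd15, Arntl, Rbm38, Timm50, Dgcr6, Tspan14, Dnmt1, Nkain1, Rfc2 and Ddx39, with log2 differences from -0.84 to -0.23. All had an adjusted p of 0.451 by limma and sides that did not overlap. Bend5, which encodes a BEN domain protein, was at 1.09, 0.796, 1.23 and 0.822 RPKM at 24, 28, 48 and 52 h and at 1.62, 1.75, 1.87 and 2.03 RPKM at 12, 16, 36 and 40 h. Hour 4 was the lower on both days, and the ratio of the means was 0.542. Dnmt1, the maintenance DNA methyltransferase, was at 4.29, 4.52, 4.71 and 4.07 RPKM at 24, 28, 48 and 52 h and at 5.40, 6.03, 5.35 and 5.44 RPKM at 12, 16, 36 and 40 h. Both it and Rfc2, a subunit of the clamp loader of DNA replication, act in dividing cells. Timm50 encodes a subunit of the mitochondrial import channel and Ntmt1 an N-terminal methyltransferase.

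The 2 days of the course were compared gene by gene. Of the 14944 genes 2305 (15.4%) stepped up, down and up between the successive pairs of libraries (12 and 16, 24 and 28, 36 and 40, 48 and 52 h), and 4936 (33.0%) stepped down, up and down. A further 788 (5.27%) stepped up and 799 (5.35%) down at all 3 steps. Values in random order alternate more often than they rise or fall throughout. These shares therefore do not compare a daily change with a drift, and neither was tested by them. The difference between the sides on the first day and that on the second had a Pearson r of 0.19 across genes, which are not independent replicates, and 59.1% of genes had the same sign on both days. Nr1d2 differed by 1.45 on the first day and 1.14 on the second on the log2 scale, Nr1d1 by 0.81 and 0.62, and AK053029 by 1.79 and 1.14. Arntl differed by -0.49 and -0.34, Cry1 by -0.68 and -0.51, Npas2 by -0.38 and -0.26, and Dbp by 0.35 and 0.68. Most of these were larger on the first day, Dbp being the exception, and no test of that difference was run.

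WT libraries at hours 8 and 20, which belong to neither side, filled in the profiles. Nr1d2 had means of 2.52, 2.83, 2.12, 1.0, 1.08 and 1.53 RPKM at hours 0, 4, 8, 12, 16 and 20, highest at hour 4 and lowest at hour 12. Nr1d1 was highest at hour 0 (7.05 RPKM) and lowest at hour 16 (3.83 RPKM). Arntl was highest at hour 12 (4.28 RPKM) and lowest at hour 4 (2.92 RPKM), and Npas2 highest at hour 16 (3.23 RPKM) and lowest at hour 4 (2.21 RPKM). Cry1 was highest at hour 12 (5.62 RPKM) and lowest at hour 0 (2.85 RPKM). These genes had their extremes inside the chosen hours. Dbp had its highest value at hour 8 (3.89 RPKM) and its lowest at hour 16 (1.93 RPKM).

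The same comparison in KO cells asked whether the sides differ alike without REV-ERBs. In KO 0 genes (0%) passed in either direction by limma, of 14763 tested. Without adjustment 248 (1.68%) were higher and 652 (4.42%) lower at a p under 0.05, and the sides did not overlap for 134 (0.908%) and 353 (2.39%). The interaction of side and genotype called 0 of 15112 genes (0%), with 325 (2.15%) at an unadjusted p under 0.05. The differences in WT and those in KO had a Pearson r of 0.38 across genes and 64.9% shared their sign. Of 769 genes without overlap in WT that were also tested in KO, 48 (6.24%) had no overlap in the same direction in KO (17 higher, 31 lower) and 2 in the opposite one. The 48 are 9.92% of the 484 genes without overlap in KO that were also tested in WT. The 17, chosen after their values were seen, included Nr1d1, Nr1d2, AK053029, Cxcl12 and the receptor gene Pdgfrb.

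Nr1d2 was at 3.72, 5.27, 3.85 and 4.67 RPKM in KO at 24, 28, 48 and 52 h and at 1.77, 1.38, 2.60 and 2.26 RPKM at 12, 16, 36 and 40 h. The sides did not overlap and the log2 difference was 1.12, which differed from that of WT by -0.18 (95% interval -0.68 to 0.32). Nr1d1 was at 9.11, 9.65, 8.02 and 9.74 RPKM and at 2.73, 2.48, 4.56 and 4.48 RPKM at the same hours. Its log2 difference of 1.38 in KO exceeded that of WT by 0.67 (95% interval 0.18 to 1.15, unadjusted p = 0.00984, adjusted p = 1.0 by limma). These are levels over the whole gene, and transcripts that lack the deleted exon are counted too. Dbp differed by 1.10 in KO, against 0.51 in WT (unadjusted p of the interaction 0.0874).

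Bmal1 and Npas2, negative in WT, were near 0 and positive in KO. Arntl was at 4.45, 4.18, 4.77 and 5.19 RPKM in KO at 24, 28, 48 and 52 h and at 5.61, 4.46, 4.67 and 4.56 RPKM at 12, 16, 36 and 40 h. The sides overlapped widely, and the log2 difference was -0.05. The interaction was 0.36 (95% interval 0.10 to 0.62, unadjusted p = 0.00911, adjusted p = 1.0 by limma). Npas2 was at 4.50, 4.58, 4.39 and 4.59 RPKM and at 4.30, 3.89, 4.05 and 3.95 RPKM, so that in KO hours 0-4 were the higher without overlap. Its log2 difference was 0.15 in KO and -0.32 in WT, an interaction of 0.47 (95% interval 0.20 to 0.75, unadjusted p = 0.00206). Neither interaction survived adjustment over all genes.

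Apart from Npas2, the interactions of smallest p at a mean of at least 1 RPKM were those of Gtf2f2, Ddx10, Idi2 and Gpi1, all with an adjusted p over the threshold by limma. Gtf2f2, which encodes a subunit of the general transcription factor TFIIF, differed by 0.12 in WT and -0.36 in KO. In KO it was at 4.08, 3.77, 4.36 and 3.70 RPKM at 24, 28, 48 and 52 h and at 5.06, 5.20, 5.38 and 4.91 RPKM at 12, 16, 36 and 40 h. The RNA helicase gene Ddx10 differed by 0.17 and -0.25, Idi2, an isomerase gene of isoprenoid synthesis, by 0.61 and -0.76, and Gpi1, a glycolytic isomerase gene, by -0.12 and 0.07.

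**Figure D2:**
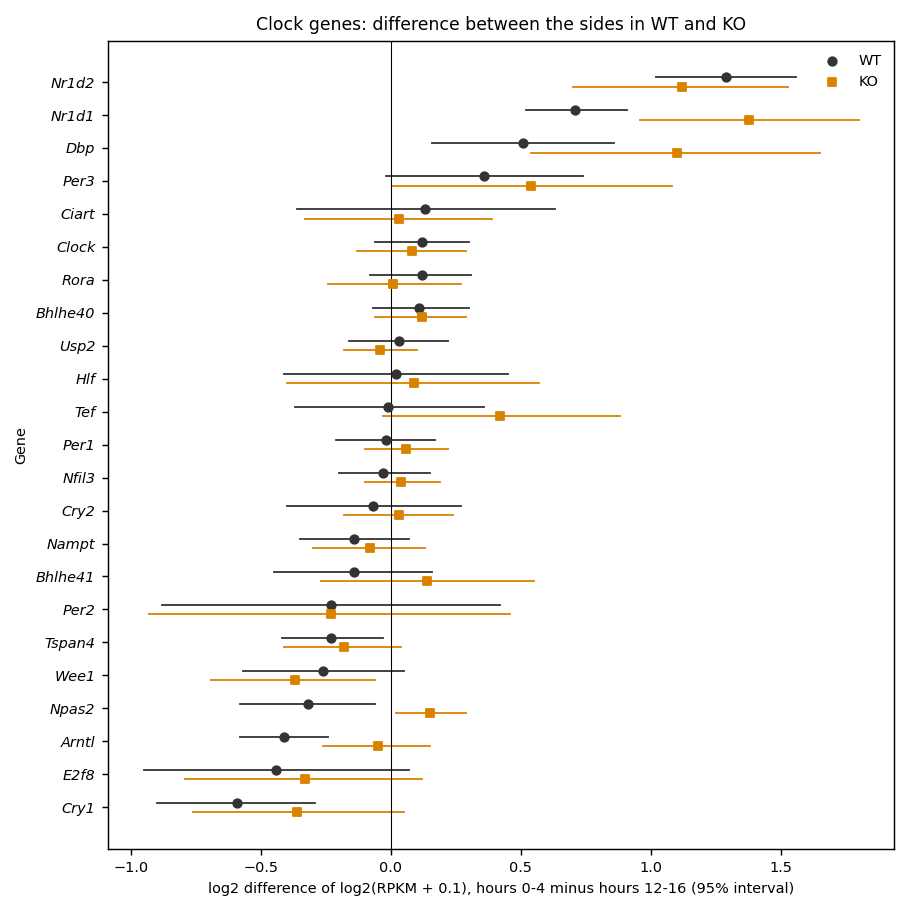
Difference in log2(RPKM + 0.1) between hours 0-4 and hours 12-16 (x axis) for each tested gene of the E-box, D-box and RRE lists (y axis), as the estimate with its 95% interval in WT (black circles) and KO (orange squares), 4 libraries a side. Nr1d2 is furthest to the right in WT (1.29), and Arntl and Npas2 lie left of 0 in WT (-0.41 and -0.32) but at -0.05 and 0.15 in KO.

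Genes of G2 and mitosis were lower at hours 0-4 as a group, though no member passed the adjusted test. All 29 had a negative difference, with a median of -0.59 against -0.03 over all genes. An unadjusted p under 0.05 was reached by 22 of the 29, lower in each case, against 7.47% of all genes. Pttg1 (securin), which holds back chromatid separation, was at 0.285, 0.321, 0.463 and 0.568 RPKM at 24, 28, 48 and 52 h and at 1.34, 1.01, 1.04 and 0.625 RPKM at 12, 16, 36 and 40 h. Its sides did not overlap, and the log2 difference was -1.11 (unadjusted p = 0.00129, adjusted p = 0.451 by limma). It rests on a mean of 9.06 fragments per library.

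Cdk1, the kinase that drives entry into mitosis, was at 1.61, 1.48, 1.70 and 1.74 RPKM at 24, 28, 48 and 52 h and at 2.98, 2.57, 2.23 and 1.96 RPKM at 12, 16, 36 and 40 h, a log2 difference of -0.53. Ube2c, the ubiquitin-conjugating enzyme of the anaphase-promoting complex, differed by -0.83 and Haus4, an augmin subunit gene, by -0.43. In Cdk1 and Ube2c the libraries at 12 and 16 h were the highest of the 8 compared. The summed level of the list was 68.7 and 55.0 RPKM at 12 and 16 h, 28.2 and 29.4 RPKM at 24 and 28 h, 41.6 and 32.4 RPKM at 36 and 40 h, and 32.6 and 32.1 RPKM at 48 and 52 h. The median difference was -1.11 on the first day and -0.14 on the second. With linear elapsed time as a covariate 9 of the 29 had an unadjusted p under 0.05 (median -0.46), and when 1 library was left out 9 (without 16 h), 10 (without 12 h), 12 (without 24 h or 28 h) or up to 28 (without 40 h) did. Between the sides the mitotic genes differed mostly within the first day. At hour 8 (mean of 32 and 56 h) Pttg1 was at 1.57, Cdk1 at 2.61, Haus4 at 2.71 and Ube2c at 4.25 RPKM. Their means at hours 0 and 4 were 0.374 and 0.445, 1.66 and 1.61, 1.97 and 1.96, and 2.16 and 2.19 RPKM. Hour 20 (20 and 44 h) gave 0.739, 2.25, 2.37 and 3.55 RPKM. Profiles by hour were made for these members only. What a decline after dexamethasone or a daily change contributes was not tested, and only 2 days were sampled.

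DNA replication genes showed the same order. Of 26 genes 25 were negative, with a median of -0.26, and 12 had an unadjusted p under 0.05, all lower, against 7.47% of all genes. That number was 7 with linear elapsed time as a covariate, and 8 (without 12 h or 16 h) to 14 (without 40 h) when 1 library was left out. Mcm2, part of the replicative helicase, was at 2.96 ± 0.121 RPKM at hours 0-4 and 3.78 ± 0.433 RPKM at hours 12-16 (SD, n = 4), a log2 difference of -0.33 with sides that did not overlap. Chaf1a, of the chromatin assembly factor, also differed by -0.33, Pole2 by -0.36 and Rrm2, of ribonucleotide reductase, by -0.35. The median was -0.41 on the first day and -0.12 on the second. In KO the medians were -0.35 for the mitotic and -0.23 for the replication genes, and no member of either was without overlap.

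Dexamethasone acts through the glucocorticoid receptor, so its direct target genes were examined as a list. Of 25 targets 8 were positive and 17 negative, with a median of -0.02, and an unadjusted p under 0.05 was reached by 2 higher and 3 lower, against 2.46% and 7.47% of all genes. When 1 library was left out these counts were 0 to 3 higher and 2 to 5 lower, with 0 higher and 5 lower without that at 52 h, 0 higher and 2 lower without that at 16 h or 36 h, and 3 higher and 2 lower without that at 12 h or 24 h. With linear elapsed time as a covariate they were 1 and 5. Klf9, a transcription factor gene, was at 25.4 ± 1.53 and 22.2 ± 2.34 RPKM (SD, n = 4; log2 0.20), and Zbtb16 differed by 0.16. Ddit4, an inhibitor of mTORC1, was at 28.6 ± 1.37 and 32.9 ± 2.67 RPKM (log2 -0.20), and Nfkbia, the inhibitor of NF-κB, differed by -0.21. The sides did not overlap for these last 2. Immediate early genes had a median of 0.00 over 16 members, with Egr1 higher at an unadjusted p of 0.0145 (log2 0.22) and Fos, Jun and Nr4a1 between -0.10 and 0.06.

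Metabolic and housekeeping lists differed by small amounts that depend on the scaling. Of 25 glycolysis and hypoxia-responsive genes 22 were negative with a median of -0.12, 9 had an unadjusted p under 0.05, all lower (7.47% over all genes), and 6 had sides that did not overlap (3.63% over all genes). Ldha, lactate dehydrogenase, was at 149, 176, 167 and 156 RPKM at 24, 28, 48 and 52 h and at 185, 187, 178 and 189 RPKM at 12, 16, 36 and 40 h, a log2 difference of -0.19. Gapdh differed by -0.18, Pfkl by -0.15 and Gpi1 by -0.12. After quantile normalization the median was -0.08 and 2 of the 25 had an unadjusted p under 0.05, without the library at 24 h or 52 h 4 did, and with linear elapsed time as a covariate or without the library at 12 h 5 did. The number rose to 10 without the library at 28 h or 40 h and to 13 without that at 48 h. All 30 cytosolic ribosomal protein genes were negative with a median of -0.09 (-0.04 after quantile normalization), and Rpl37 alone had an unadjusted p under 0.05. Without the library at 36 h 13 of the 30 did.

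Of 24 oxidative phosphorylation genes 22 were negative with a median of -0.07. An unadjusted p under 0.05 was reached by 4, lower (7.47% over all genes), and by 2 to 9 when 1 library was left out, with 9 without that at 36 h. Sides without overlap were found for 3 (3.63% over all genes), among them the subunit genes Ndufb8 and Uqcrc1 with log2 differences of -0.17 and -0.16. Cholesterol and fatty acid synthesis had 25 of 27 negative with a median of -0.11, and Acly, which makes cytosolic acetyl-CoA, and Mvk, mevalonate kinase, were the 2 with an unadjusted p under 0.05, a share like the 7.47% of all genes. None had one with linear elapsed time as a covariate, after quantile normalization or without the library at 12 h or 16 h, and 1 did without that at 24 h, 36 h or 52 h, but 5 did without that at 28 h and 7 without that at 40 h. Stress response genes of the endoplasmic reticulum and amino acid supply had 18 of 20 negative (median -0.07). Dnajb9, a chaperone of that response, went the other way at 10.7 ± 0.475 and 9.29 ± 0.628 RPKM (SD, n = 4; log2 0.21), whereas Psat1, of serine synthesis, differed by -0.47. Heat shock genes had a median of -0.07 and none of 18 with an unadjusted p under 0.05, the smallest being that of Dnajb1 (0.0561). Interferon-induced genes were negative in 19 of 20 with a median of -0.30, and Rsad2 alone had an unadjusted p under 0.05. With linear elapsed time as a covariate that median was -0.59 and 12 did, and without the library at 36 h it was -0.09 and none did. Without the library at 48 h it was -0.44 and 6 did, and after quantile normalization it was -0.23 and 1 did.

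**Figure D3:**
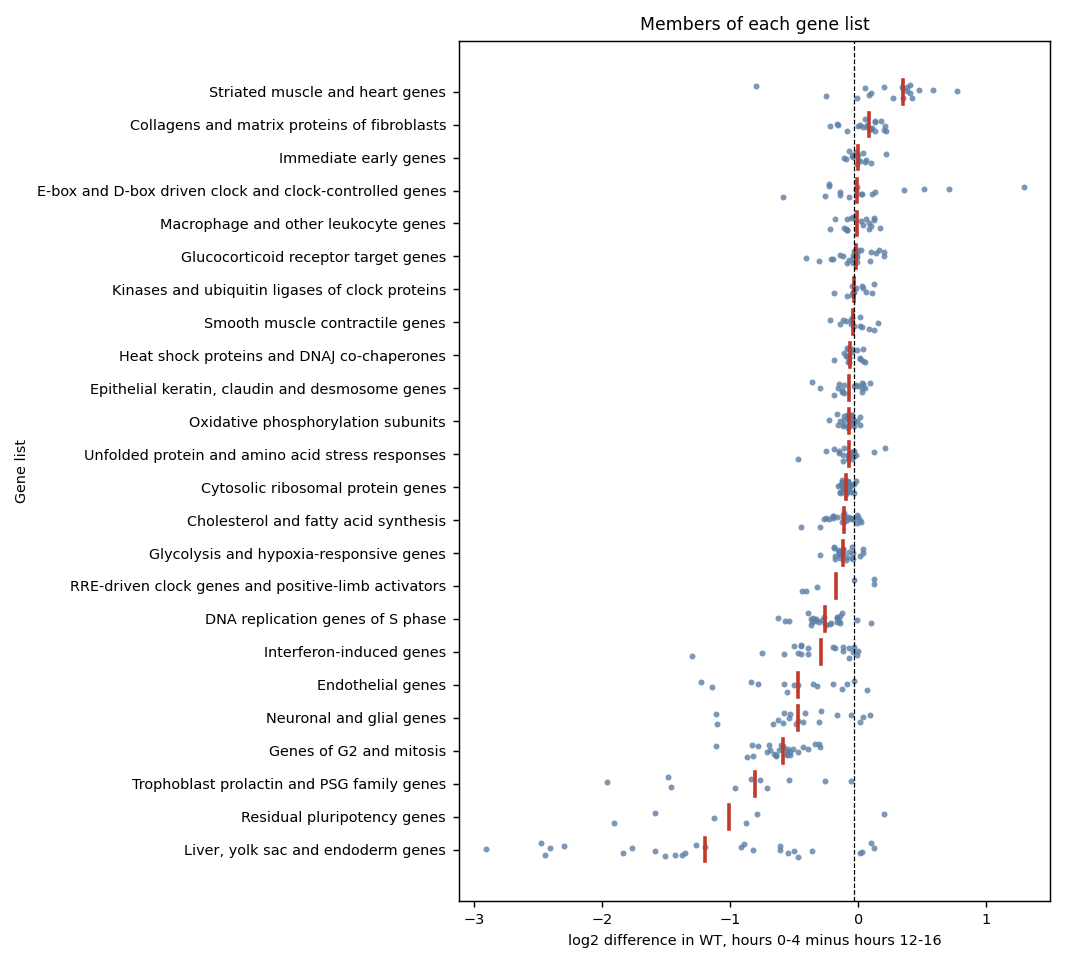
Log2 difference in WT between hours 0-4 and hours 12-16 (x axis) of each tested member (blue points, spread vertically for view) of the gene lists with at least 6 tested members (y axis), with the median of each list (red bar) and of all genes (dashed line, -0.03). Mitotic genes lie wholly left of 0, endoderm genes spread furthest, and ribosomal, metabolic and leukocyte genes stay close to the dashed line.

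Marker genes of other cell types varied between libraries of the same side. Of 27 liver, yolk sac and endoderm genes 23 were negative, with a median of -1.20 and 8 at an unadjusted p under 0.05, lower, against 7.47% of all genes. Afp, the fetal serum protein, was at 48.0, 12.0, 59.8 and 195 RPKM at 24, 28, 48 and 52 h and at 43.8, 727, 464 and 20.8 RPKM at 12, 16, 36 and 40 h. Its 2 high libraries were both of hours 12-16, while the other 2 of that side lay among those of hours 0-4. Ttr, the thyroxine carrier transthyretin, was at 13.8, 18.7, 8.88 and 38.0 RPKM and at 48.4, 39.7, 77.9 and 39.0 RPKM at the same hours, without overlap (log2 -1.51, unadjusted p = 0.00414). Without the library at 16 h the median was -0.79 with 2 genes at an unadjusted p under 0.05, and without that at 36 h it was -1.12, also with 2. Without the library at 28 h, the lowest in the sum of this list, it was -0.87, again with 2. Such a p was reached by 4 genes without the library at 24 h, by 12 without that at 12 h and by 13 without that at 52 h.

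Neuronal and glial genes had 16 of 19 negative with a median of -0.47, which was 0.04 without the library at 36 h. Tubb3, a neuronal tubulin, was at 21.7 RPKM in that library and at 2.55 to 11.2 RPKM in the other 7. Of 16 trophoblast genes 10 passed the filter on low values and were tested, and all 10 were negative (median -0.80). Tpbpa, of the spongiotrophoblast, was at 72.1 RPKM at 40 h and 53.2 RPKM at 16 h, but also at 41.9 RPKM at 48 h. Without the library at 40 h that median was -0.51 and without that at 16 h -0.48. Residual pluripotency genes were low, with 6 of 16 tested. Their median was -1.01, and 4 were lower and 1 higher at an unadjusted p under 0.05 (7.47% and 2.46% over all genes). Lin28a was at 0.201 to 0.458 RPKM at hours 0-4 and at 0.363 to 1.95 RPKM at hours 12-16, and Nanog was at most 0.372 RPKM in all 8 libraries. Klf5, which epithelia also express, was the member that was higher (log2 0.20).

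Endothelial genes were negative in 14 of 15 with a median of -0.47 and 5 at an unadjusted p under 0.05, lower, against 7.47% of all genes. That number was 2 without the library at 52 h or 16 h and 3 without that at 28 h, with linear elapsed time as a covariate or after quantile normalization. It was 6 without the library at 36 h and 7 without that at 40 h. The median was -0.31 without the library at 16 h and -0.62 without that at 40 h. By day it was -0.93 on the first and -0.11 on the second. Cdh5, the endothelial cadherin, was at 3.38 ± 2.09 and 8.02 ± 3.88 RPKM (SD, n = 4; log2 -1.23), and Pecam1 at 0.956 ± 0.280 and 1.72 ± 0.551 RPKM (log2 -0.78). Esam, an endothelial adhesion molecule, had sides that did not overlap (log2 -1.14). Striated muscle and heart genes mostly went the other way, with 16 of 19 positive and a median of 0.35. An unadjusted p under 0.05 was reached by 2 higher and 1 lower, against 2.46% and 7.47% of all genes. The lower 1 was Nppb, a natriuretic peptide gene (log2 -0.80). When 1 library was left out, 1 to 7 were higher and 0 to 1 lower at that p, with 7 and 0 without the library at 16 h. Myl2, the ventricular light chain, was at 5.80, 4.04, 5.59 and 4.86 RPKM at 24, 28, 48 and 52 h and at 1.48, 5.04, 2.72 and 3.43 RPKM at 12, 16, 36 and 40 h, and Pln, phospholamban, differed by 0.58. Without the library at 12 h, the lowest in the sum of this list (65.4 RPKM against 90.3 to 120), the median was 0.14. Without that at 16 h it was 0.53.

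Genes of matrix, smooth muscle, leukocytes and epithelium had medians between -0.07 and 0.09. Collagen and matrix genes summed to 6660 ± 318 RPKM at hours 0-4 and 6440 ± 113 RPKM at hours 12-16 (SD, n = 4), with 16 of 20 positive and a median of 0.09. Pdgfrb, a receptor of mesenchymal cells, was the member whose sides did not overlap (15.6 ± 0.598 and 14.3 ± 0.350 RPKM). Smooth muscle genes had a median of -0.04 and Smtn alone had sides that did not overlap (log2 0.12). Leukocyte genes had a median of -0.01 and epithelial genes of -0.07, with 1 and 0 of 18 at an unadjusted p under 0.05. Of the red cell genes only Hba-a2 was tested, and the summed list stayed at or under 2.38 RPKM. None of the lists had a member at 0 in all 8 libraries. The share of these cell types in the differences of other genes was not tested. With the library at 16 h or that at 36 h left out, 1 at a time, Nr1d2 differed between the sides by 1.23 and 1.31 on the log2 scale. Arntl differed by -0.42 and -0.44. Each of these fits kept the other library with high endoderm genes, so the values do not bear on that share.

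**Figure D4:**
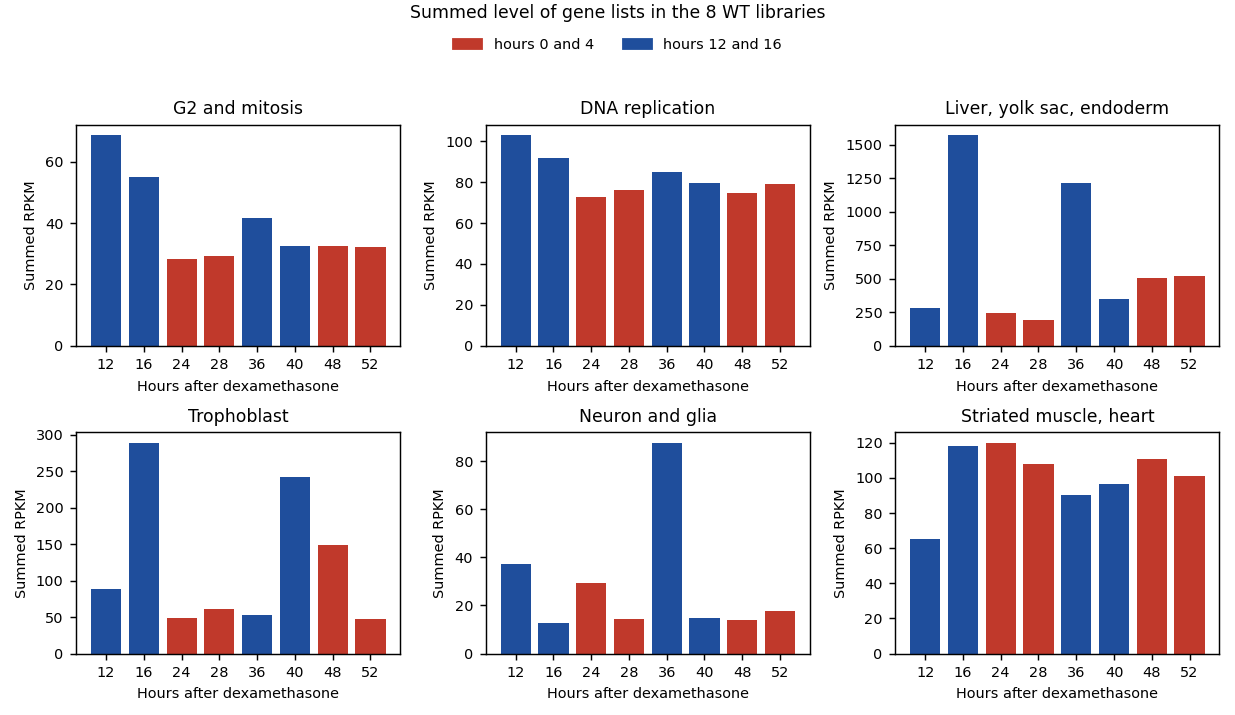
Summed RPKM (y axis, from 0) of 6 gene lists in each of the 8 WT libraries (x axis, hours after dexamethasone), with hours 0-4 in red and hours 12-16 in blue. Mitotic genes are highest at 12 h (68.7 RPKM), endoderm genes stand out at 16 and 36 h (1570 and 1210 RPKM), and neuronal genes at 36 h (87.6 RPKM).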

How the data were processed

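RNA-seq of polyA-selected RNA was analysed in 8 WT libraries, with 8 KO libraries for comparison. The authors passed 101-bp paired-end reads through Trimmomatic 0.36, STAR 2.5.4b on GRCm38, SAMtools (mapping quality of at least 10 kept) and HOMER, which counted exons of UCSC known canonical genes, per the submitters' notes and the methods. The deposited values are RPKM for 33079 genes, so that no test for counts was used. RPKM times exonic length gave RPM, and multiplying that by the library total returned fragments in steps of 0.5 for 100% of values (tolerance 0.01), used for depth only. Precision is limited by 4 libraries a side and, in genes of few fragments, by counting error.

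The 14944 genes above 0.5 RPM on average in the 12 WT libraries were tested with limma 3.58.1 in R 4.3.3 (empirical Bayes with a trend) on log2(RPKM + 0.1), with no covariate and Benjamini-Hochberg adjustment at 0.05. A fold on this scale understates the change of low genes. KO and the interaction were fitted likewise. The fit was tested on simulated data. Library totals were compared by an exact permutation test. Alternatives covered the pseudocount, the filter, elapsed time, blocks, scaling, the trend, the spread of all 24 libraries, a cosine over 12 WT libraries and the omission of each library. Median centring was chosen after seeing the data. The gene lists hold 497 members, of which 492 were in the table and 463 were tested. Named are all genes of the 3 clock lists, the 12 genes of smallest p in each direction at a mean of at least 1 RPKM, up to 4 of smallest p from each other list and 5 interactions. Other names were chosen after their values were seen. The comparison and the lists were chosen with earlier results of these data known. Some genes of the lists and of the paper are not reported here. Python 3.11.15, numpy 2.4.6, pandas 2.3.3, scipy 1.17.1 and matplotlib 3.10.9 were used.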

Additional observations from a re-analysis of the deposited data

Results flagged for a closer look

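Of 166 groups of 4 libraries tested, 13 had 1 library set apart by a gap to its neighbour that was large for the range (Dixon's test at 95%), and chance gives about 1 in 20 groups. In sums over gene lists these were the E-box and D-box clock genes at 12 h (156 RPKM), the immediate early genes at 24 h (156 RPKM), the red cell genes at 52 h (2.38 RPKM) and at 16 h (1.69 RPKM), and the trophoblast genes at 48 h (149 RPKM). In single genes they were Wee1 (3.06 RPKM) and Clock (2.79 RPKM) at 36 h, Nampt at 36 h (4.52 RPKM), Clock at 24 h (2.58 RPKM), AK053029 at 24 h (2.14 RPKM), Tns1 at 48 h (34.9 RPKM), AK020087 at 12 h (4.72 RPKM) and Dnmt1 at 16 h (6.03 RPKM). For AK053029, Tns1, AK020087 and Dnmt1 the sides did not overlap with these libraries included.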

How the results depend on the processing

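The call of Nr1d2 was the only one in WT, and the number of genes called as higher was 0 without a filter on low values (adjusted p of Nr1d2 0.0654), with linear elapsed time (0.105), with libraries 12 h apart as a replicate block (0.186), without the trend (0.052) and with the spread of all 24 libraries (0.147). It was 0 to 2 when 1 library was left out: 0 without any of the libraries at 12, 16, 24, 28, 36, 48 or 52 h, and 2 (Nr1d2 and AK053029) without that at 40 h. The log2 difference of Nr1d2 stayed between 0.85 (pseudocount 1) and 1.38. The cause of these losses was not tested. Without the filter 2 genes were called as lower, Madcam1 and Dleu7, whose levels were at most 0.0877 and 0.0229 RPKM. In KO 1 gene, AK053029, was called as higher with a pseudocount of 1. The number with an unadjusted p under 0.05 was 600 higher without the filter (more genes tested), 821 higher and 603 lower after quantile normalization, 631 higher after median centring, and 241 to 460 higher when 1 library was left out. The labels give the WT libraries no shared replicate number, so the replicate block is by design hours only. It changed no call other than that of Nr1d2. Of 2884 alternative fits of 145 named genes 40 changed sign, in 13 genes, none of them among the 86 with an unadjusted p under 0.05. Each time point has 1 library, and this limits every value of a single hour.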
